A study of Drosophila melanogaster
Mus musculus with 36 samples.

Results

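The mir-12, mir-283 and mir-304 hairpins form a cluster of miRNA genes on the Drosophila melanogaster X chromosome. Both arms of all 3 hairpins were taken by name, which gave 6 entries, dme-mir-12-5p, dme-mir-12-3p, dme-mir-283-5p, dme-mir-283-3p, dme-mir-304-5p and dme-mir-304-3p, out of 372 fly entries and 2038 entries of both species. In the gene table of the Drosophila Release 6 assembly the hairpins follow one another as mir-283, mir-304 and mir-12, and all 3 lie within the span of Gmap, a protein-coding gene for a coiled-coil protein of the Golgi. That assembly is not the build the submitters name, so no coordinates are given.

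miRNAs that sit close together on a chromosome are often cut from 1 primary transcript by Drosha and then from their hairpins by Dicer. One arm of a hairpin is usually loaded into an Argonaute protein more often than the other, and the less loaded arm is degraded. In fly wing tissue this cluster has been described as acting on components of the Hedgehog signalling pathway. Fly Hen1 adds a methyl group to the 3′-terminal ribose of piRNAs and siRNAs, whereas miRNAs bound to Argonaute-1 are mostly left unmethylated. The plant enzyme HEN1 methylates miRNAs as well. Sodium periodate oxidises a 3′ end that lacks this methyl group, and an oxidised end cannot be joined to the sequencing adapter.

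The fly RNA came from S2-S cells, a Drosophila cell line derived from embryos and labelled DmHen1-KO; FLAG-MYC-AthHEN1, so every mixture, untreated ones included, carried RNA of cells without fly Hen1 that expressed tagged Arabidopsis thaliana HEN1. It was mixed with RNA of mouse embryonic stem (ES) cells of the clone AN3-12 at fly to mouse ratios of 1:1, 1:10, 1:100, 1:1000, 1:10000 and 1:100000, and each mixture was divided between an oxidised (periodate) and an untreated library. There were thus 12 groups of treatment by ratio with 3 libraries each, 36 libraries in all, in 3 replicate sets. Set 1, which has no number in its titles, was sequenced on a HiSeq2500 and sets 2 and 3 on a HiSeq2000, and set 1 used 25 µg of mouse RNA per mixture where the other sets used 50 µg of total RNA. No group without HEN1 was analysed here, and the HEN1 cells are 1 engineered line, so retention is described for this line only.

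Total miRNA counts ranged from 326776 to 16619583 in untreated libraries and from 3654 to 1312983 in oxidised ones. Fly counts ranged from 138 to 1580024 and from 275 to 1165619, respectively. In untreated 1:1 libraries all 5 S2 cell entries looked up, led by dme-bantam-3p, and all 7 ES cell entries, led by mmu-mir-294-3p, were above 0 in each set, and they summed to between 43.7% and 58.3% of fly counts and between 52.7% and 54.9% of mouse counts. Of fly counts, dme-bantam-3p alone held between 35.2% and 51.7%. Some entries held few counts, with dme-mir-14-3p at most 0.457%, dme-mir-184-3p at most 0.0358% and mmu-mir-302b-3p at most 0.0137% of the counts of their species. The mouse entry mmu-mir-184-3p took between 73.1% and 91.6% of mouse counts in oxidised 1:1 and 1:10 libraries, against between 0.376% and 10.2% in the untreated ones, and it fell with the fly RNA over the dilution. Scaling to mouse counts was also run without it. How reads that match both mir-184 entries were assigned was not given. The count of dme-mir-184-3p may therefore not give the level of fly mir-184. Replicates are not stated to be separate cultures, so p-values measure only the spread between these libraries, which may be technical.

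All 6 arms were present in untreated 1:1 libraries, and each hairpin gave mostly its 5p arm. dme-mir-304-5p had 17806, 848 and 8742 counts in sets 1, 2 and 3. dme-mir-283-5p had 9428, 600 and 4543 counts. dme-mir-12-5p, the 5p arm of the third hairpin, had 1572, 106 and 1011 counts. Set 2 was lowest for each of the 5p arms, and its total of 151036 fly counts was the lowest of the sets as well.

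The 3p arms were much rarer than their 5p partners in the same libraries. dme-mir-304-3p had 381, 24 and 212 counts, dme-mir-283-3p had 197, 17 and 106, and dme-mir-12-3p had 244, 11 and 96. The 3p arm made up 2.40% ± 0.33 (SD, n = 3) of the mir-304 hairpin, 2.36% ± 0.36 (SD, n = 3) of mir-283 and 10.5% ± 2.57 (SD, n = 3) of mir-12. mir-12 thus gave the largest share of its 3p arm among the hairpins of the cluster, with values of 8.67% to 13.4% against at most 2.76% in the other two.

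As a share of all fly miRNA counts, dme-mir-304-5p was at 0.827% ± 0.284 (SD, n = 3) in untreated 1:1 libraries and ranked 25 among fly entries. dme-mir-283-5p was at 0.469% ± 0.111 (SD, n = 3) with rank 31, and dme-mir-12-5p at 0.0871% ± 0.0152 (SD, n = 3) with rank 51. The 3p arms of mir-304, mir-283 and mir-12 followed at 0.0197% ± 0.0041, 0.0111% ± 0.0014 and 0.0105% ± 0.0044 (SD, n = 3), with ranks 79, 87 and 88. These levels are counts of whole short reads, so no correction for length was made, and in bulk RNA fewer cells and less RNA per cell cannot be told apart.

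The order of the 5p arms was the same in every untreated library from 1:1 to 1:100. dme-mir-304-5p exceeded dme-mir-283-5p in 9 of 9 of them, and dme-mir-283-5p exceeded dme-mir-12-5p in 9 of 9. Among the 3p arms, dme-mir-304-3p exceeded both others in 9 of 9, while dme-mir-283-3p was above dme-mir-12-3p in 5 and below it in 3, so this pair did not differ beyond its spread. The fly entries next to dme-mir-12-5p in level were dme-mir-998-5p at 0.102% and dme-mir-306-3p at 0.096% above it, and dme-mir-190-5p at 0.0869% and dme-mir-968-5p at 0.0833% below it. None of these neighbours differed in mean from dme-mir-12-5p by more than its SD of 0.0152 percentage points. dme-mir-306-3p itself varied widely between the sets, with an SD of 0.0619 percentage points.

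**Figure D1:**
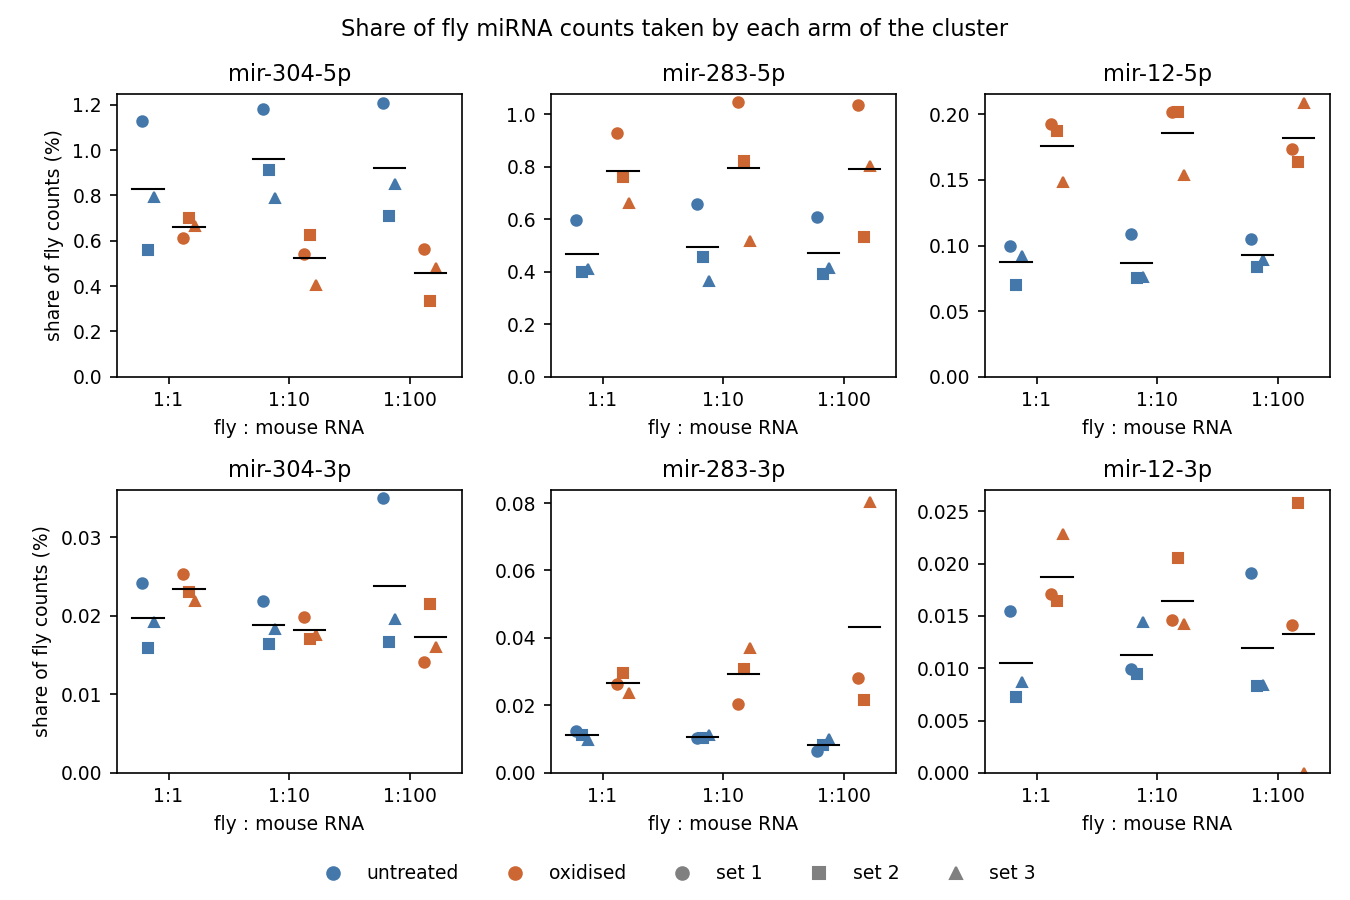
Share of fly miRNA counts (percent, linear axes that start at 0 and differ between panels) of each arm by mixing ratio. Points are libraries, blue for untreated and orange for oxidised with the replicate set as the symbol, and black lines are means of 3. The oxidised points of mir-12-5p and mir-283-3p lie above all untreated points at each ratio, and those of mir-304-5p lie below them at 1:10 and 1:100.

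Relative to mouse miRNAs, every arm of the cluster was higher in oxidised libraries. In untreated 1:1 libraries of sets 1, 2 and 3, dme-mir-12-5p was at 420.4, 603 and 809.6 counts per 1000000 mouse counts, and in oxidised 1:1 libraries at 15255, 13551 and 14556. dme-mir-283-5p went from 2521, 3414 and 3638 to 73478, 55155 and 65009, and dme-mir-304-5p from 4762, 4825 and 7001 to 48553, 50876 and 65562. The lowest oxidised library was far above the highest untreated one for each of them, and the same held for the 3p arms at 1:1. The mouse counts used here include mmu-mir-184-3p, which made up most of the oxidised mouse counts at 1:1.

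The gap widened with dilution on this plain scale. The mean level of dme-mir-12-5p in oxidised libraries was 23.7 times that in untreated ones at 1:1, 187 times at 1:10 and 790 times at 1:100. For dme-mir-283-5p the ratios of the means were 20.2, 145 and 627, and for dme-mir-304-5p they were 9.95, 47.5 and 193. mmu-mir-184-3p is part of this denominator and fell with the fly RNA over the dilution. The plain mouse total of oxidised libraries thus cannot be taken as a measure of mouse RNA alone. The share of mmu-mir-184-3p in oxidised mouse counts was between 85.1% and 91.6% at 1:1 and between 22.8% and 53.6% at 1:100. Without it the ratios at 1:1, 1:10 and 1:100 were 194, 1149 and 1571 for dme-mir-12-5p, 168, 850 and 1207 for dme-mir-283-5p and 78.9, 296 and 374 for dme-mir-304-5p. The size of the gap and of its widening thus depended on that 1 mouse entry, while dme-mir-304-5p had the smallest ratio of the 5p arms at each of these mixtures with and without it. Oxidised and untreated libraries did not overlap for any arm at 1:1, 1:10 or 1:100 except dme-mir-12-3p at 1:100, where set 3 of the oxidised libraries held no count. The share of all fly entries without overlap was not counted. In the test described next, 98.3%, 98.3% and 92.3% of fly entries were called higher at these ratios, so the cluster is not set apart by this.

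In the edgeR quasi-likelihood test, scaled to mouse totals times TMM factors and adjusted over all entries of both species, all 6 arms were called higher at 1:1 (adjusted p below 0.05 as in all calls here). The log2 changes at 1:1 were 5.50 ± 1.05 (SE) for dme-mir-304-5p, with an adjusted p of 5.93e-05 by edgeR, and between 6.12 and 7.07 for the other 5. Among the 117 fly entries tested, 98.3% were called higher at 1:1, so the count for the cluster is close to that of fly miRNAs in general. TMM factors of the mouse counts were between 0.145 and 2.00 in oxidised and between 0.931 and 1.08 in untreated libraries at these ratios, and with plain mouse totals the change of dme-mir-304-5p at 1:1 was 3.31 and that of dme-mir-12-5p 4.57 in place of 6.81, with all 6 arms still called.

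All 6 arms were also called higher at 1:10 and at 1:100, where 98.3% and 92.3% of fly entries were. Averaged over 1:1 to 1:100, the log2 changes were 8.84 ± 0.63 (SE) for dme-mir-283-3p, 8.37 ± 0.66 for dme-mir-12-5p, 8.04 ± 0.65 for dme-mir-283-5p, 7.89 ± 0.63 for dme-mir-12-3p, 7.21 ± 0.50 for dme-mir-304-3p and 6.59 ± 0.64 for dme-mir-304-5p. The adjusted p by edgeR was at most 4.84e-11 among them. The median of the 117 fly entries was 7.83, with 96.6% called higher, so both mir-304 arms were below the median and dme-mir-12-3p was near it. Without mmu-mir-184-3p in the scaling the average for dme-mir-12-5p was 8.39. The largest change of the cluster was in the rare 3p arm of mir-283 and the smallest in the most abundant arm, dme-mir-304-5p.

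Whether the change with oxidation differed between 1:1, 1:10 and 1:100 was tested as an interaction in the same edgeR fit. No fly entry was called, 0% of 117, while 15 had an unadjusted p below 0.05, among them 1 arm of the cluster, dme-mir-283-3p, with an unadjusted p of 0.0428 by edgeR. This result rested on the scaling and on set 1. With mouse totals without TMM, 85 of the 117 fly entries and all 6 arms were called, with adjusted p by edgeR between 0.00924 and 0.0386 for the arms, and without replicate 1, 60 fly entries and 3 arms were called, dme-mir-12-5p, dme-mir-283-3p and dme-mir-304-3p.

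The arms diluted with the fly RNA in untreated libraries. The slope of log10 level per mouse count on log10 mixing ratio from 1:1 to 1:100 was 0.937 ± 0.027 (SD over the 3 sets) for dme-mir-12-5p, 0.953 ± 0.002 for dme-mir-283-5p and 0.928 ± 0.022 for dme-mir-304-5p, against 0.955 ± 0.001 for all fly counts. In oxidised libraries the slopes were 0.200 ± 0.146, 0.214 ± 0.095 and 0.293 ± 0.063, against 0.211 ± 0.127 for all fly counts. A slope of 1 would be a 10-fold fall for each 10-fold dilution. These oxidised slopes rest on mouse counts that were mostly mmu-mir-184-3p at 1:1 and 1:10, an entry that fell with the fly RNA. Without mmu-mir-184-3p among the mouse counts the oxidised slopes were 0.54 ± 0.27 for dme-mir-12-5p, 0.554 ± 0.219 for dme-mir-283-5p and 0.633 ± 0.186 for dme-mir-304-5p, against 0.551 ± 0.244 for all fly counts, and the untreated ones were between 0.945 and 0.971, against 0.973. dme-mir-12-5p differed from the slope of all fly counts by less than its own SD in both treatments, with and without that entry.

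**Figure D2:**
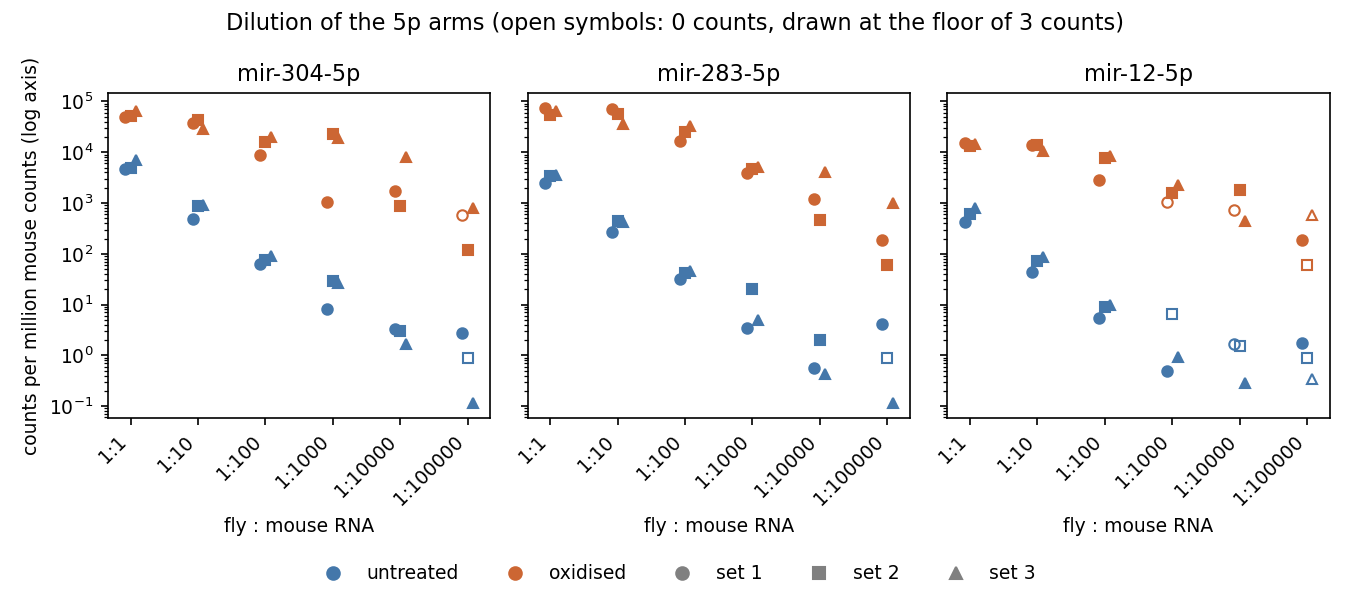
Counts per 1000000 mouse counts (log axis) of the 5p arms against the fly to mouse mixing ratio, 1 point per library. The mouse counts include mmu-mir-184-3p, which took between 73.1% and 91.6% of them in oxidised 1:1 and 1:10 libraries. Blue is untreated and orange oxidised, symbols give the replicate set, and open symbols are libraries with 0 counts drawn at the floor of 3 counts. Oxidised points lie above untreated points from 1:1 to 1:100, and untreated points fall by about a decade per step there.

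In the more dilute mixtures few reads of the arms were left without oxidation. At 1:1000, untreated libraries held 49, 13 and 200 counts of dme-mir-304-5p in sets 1, 2 and 3, 21, 9 and 37 of dme-mir-283-5p and 3, 0 and 7 of dme-mir-12-5p. Oxidised 1:1000 libraries held 3, 346 and 296, then 11, 72 and 81, and 0, 24 and 35 counts of these arms. All 6 arms were called higher at 1:1000 by edgeR relative to mouse miRNAs, as were 82.1% of fly entries. In the fit of the 6 libraries of that ratio alone, 3 arms were called, dme-mir-283-5p, dme-mir-304-5p and dme-mir-304-3p. The other arms did not pass the count filter there and were not tested. The share of fly entries called in that fit is not given, so this count does not describe the cluster beside other fly miRNAs.

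At 1:10000, the arms dme-mir-12-5p, dme-mir-12-3p, dme-mir-283-5p and dme-mir-304-5p were called higher, 4 of 6, against 73.5% of fly entries. dme-mir-12-5p had 0, 0 and 2 counts without oxidation and 0, 118 and 7 with it, so nearly all of its reads came from set 2. Per mouse count its summed counts were 7893 times higher in oxidised libraries, with a counting interval of 2140 to 65891. Without set 2 the fold was 1577, with an interval of 300.3 to 15562, and the fitted log2 change went from 10.89 to 8.83, still called. dme-mir-12-3p had no count in any untreated library and 4 in 1 oxidised library. Against a floor of 3 counts over the untreated group this is 168-fold higher per mouse count. That value takes the 4 counts as exact, so it is not a lower limit. Without the other ratios in the fit, 2 arms were called at 1:10000, dme-mir-283-5p and dme-mir-304-5p. Both mir-12 arms failed the count filter there and were not tested. For this fit, too, the share of fly entries called is not given.

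In the set 2 oxidised library at 1:10000, dme-mir-12-5p with 118 counts exceeded dme-mir-283-5p with 30 and dme-mir-304-5p with 57. That order was not seen in any oxidised library at 1:1, 1:10 or 1:100, where dme-mir-283-5p exceeded dme-mir-12-5p in 9 of 9. The share of dme-mir-12-5p in that library was 0.46% of fly counts, against 0.0759% in set 3 and 0 in set 1, where 624 fly counts allowed a share of up to 0.481%.

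At 1:100000, dme-mir-283-5p and dme-mir-304-5p were called higher, 2 of 6 arms, against 55.6% of fly entries. Their counts were 12, 0 and 1 and 8, 0 and 1 without oxidation, and 1, 3 and 5 and 0, 6 and 4 with it. Neither was called without replicate 3. The untreated set 1 library at this ratio held 1823 fly counts, more than the 366 to 1236 of the untreated 1:10000 libraries, and it supplied 26 of the cluster's reads. dme-mir-12-5p had 5 counts there, 0 in the other untreated libraries and 1 in an oxidised library, and its change of 4.40 ± 2.70 (SE, log2) was not called, with an adjusted p of 0.326 by edgeR.

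Relative to other fly miRNAs, the arms of the cluster parted. Scaled to fly totals times TMM factors over the 18 libraries at 1:1 to 1:100, dme-mir-304-5p and dme-mir-304-3p fell with oxidation, dme-mir-283-3p and dme-mir-12-5p rose, and dme-mir-283-5p and dme-mir-12-3p were not called. This was 2 of 6 higher and 2 of 6 lower, against 32.4% and 40.0% of the 105 fly entries tested. The log2 changes of the arms lay at ranks 21, 38, 44, 49, 65 and 78 from the highest, and all but that of dme-mir-283-3p were between the quartiles of the fly entries, -1.47 and 0.78.

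In this TMM-scaled fit the fall of dme-mir-304-5p was the largest change of the 6. At 1:1 its share of fly counts was 1.13%, 0.561% and 0.793% in untreated libraries of sets 1, 2 and 3 and 0.614%, 0.702% and 0.667% in oxidised ones, where the groups overlapped. At 1:10 it went from 1.18%, 0.912% and 0.787% to 0.542%, 0.625% and 0.407%, and at 1:100 from 1.21%, 0.708% and 0.85% to 0.563%, 0.335% and 0.482%. All 3 oxidised libraries were below all untreated ones at 1:10 and at 1:100. Its average log2 change relative to fly miRNAs was -1.35 ± 0.16 (SE), with an adjusted p of 5.90e-07 by edgeR, and it was called lower in every alternative run for that average.

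dme-mir-304-3p, the partner arm, changed by -0.72 ± 0.16 (SE), with an adjusted p of 0.000634 by edgeR. That call was lost with DESeq2 size factors (-0.58, adjusted p 0.102), in DESeq2 itself (-0.58, adjusted p 0.221), with fly totals without TMM (-0.10, adjusted p 0.665 by edgeR), without replicate 2 (-0.57) and without replicate 3 (-0.46). Its share of fly counts at 1:1 was 0.0241%, 0.0159% and 0.0192% in untreated and 0.0253%, 0.023% and 0.0219% in oxidised libraries. The groups overlapped at each ratio.

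dme-mir-12-5p took 0.0995%, 0.0702% and 0.0917% of fly counts in untreated 1:1 libraries and 0.193%, 0.187% and 0.148% in oxidised ones. The oxidised values at 1:10 were 0.201%, 0.202% and 0.153% against 0.109%, 0.075% and 0.0758%, and at 1:100 they were 0.174%, 0.163% and 0.209% against 0.105%, 0.0833% and 0.0892%. No oxidised library was as low as any untreated one at the same ratio. How many of all fly entries had shares without overlap was not counted, for this or the other arms. With TMM scaling its log2 change was 0.38 ± 0.15 (SE), with an adjusted p of 0.0254 by edgeR, and the call was lost with DESeq2 size factors (0.51, adjusted p 0.118 by edgeR), in DESeq2 (0.50, adjusted p 0.162), with no filter on low counts (0.38, adjusted p 0.199 by edgeR) and without replicate 1 (0.25, adjusted p 0.151 by edgeR).

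dme-mir-283-3p rose by 0.84 ± 0.21 (SE, log2), with an adjusted p of 0.00157 by edgeR. Its share at 1:1 was 0.0125%, 0.0113% and 0.00961% in untreated and 0.0263%, 0.0295% and 0.0237% in oxidised libraries, and the groups did not overlap at 1:1, 1:10 or 1:100. At 1:100 these shares rest on 2, 1 and 18 counts without oxidation and 14, 5 and 5 with it. dme-mir-283-5p, the abundant partner arm, changed by 0.12 ± 0.19 (SE), adjusted p 0.576 by edgeR, and dme-mir-12-3p by -0.04 ± 0.24 (SE), adjusted p 0.906 by edgeR.

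**Figure D3:**
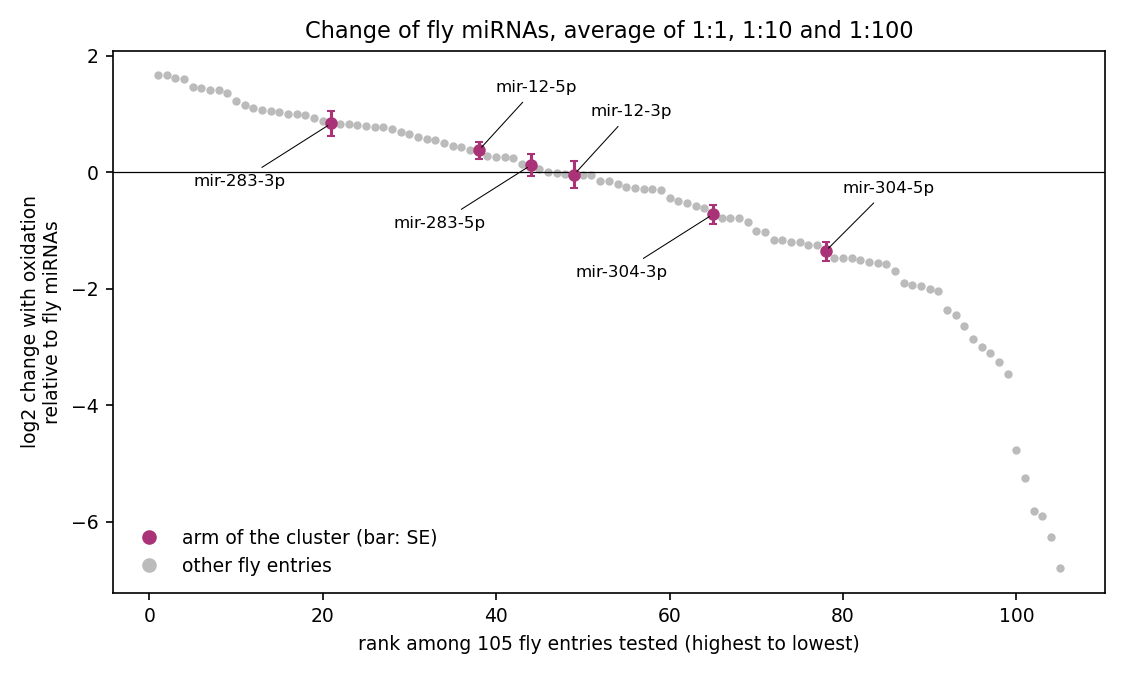
Average log2 change with oxidation over 1:1, 1:10 and 1:100 relative to fly miRNAs (edgeR) for 105 fly entries, ordered from highest to lowest. Purple points with SE bars are the arms of the cluster, from mir-283-3p at rank 21 to mir-304-5p at rank 78, and grey points are other fly entries.

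Plain shares of fly counts gave higher values than the TMM scaling, because TMM scaling shifted the median log2 change of fly entries from 0.44 with fly totals to -0.16. Over the 9 pairs of untreated and oxidised libraries at 1:1 to 1:100, the mean log2 change in share was 1.55 for dme-mir-283-3p and 1.04 for dme-mir-12-5p, both higher in 9 of 9 pairs with p = 0.00025, the smallest the exact two-sided permutation within ratios can give. dme-mir-283-5p was 0.72 higher in 9 of 9 pairs (exact permutation p = 0.002). dme-mir-304-5p was 0.71 lower on the log2 scale, a change of -0.71, and higher in 1 of 9 pairs (exact permutation p = 0.00125). The permutation does not use the pairs. With mixtures as pairs, the exact sign-flip p was 0.0117 for dme-mir-304-5p. It was 0.00391, the smallest possible, for each of dme-mir-283-3p, dme-mir-12-5p and dme-mir-283-5p. dme-mir-304-3p changed by 0.0026 (exact permutation p = 0.986), and these p-values are unadjusted over 6 shares compared. How many of all fly entries kept 1 direction in 9 of 9 pairs was not counted.

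dme-mir-12-3p had a mean change in share of 0.57, higher in 7 of 9 pairs (exact permutation p = 0.041). With mixtures as pairs the exact sign-flip p was 0.0508. dme-bantam-3p alone held between 35.2% and 51.7% of fly counts in untreated 1:1 libraries, and with it left out of the denominator the change of dme-mir-12-3p was 0.0153 (exact permutation p = 0.949), that of dme-mir-283-5p 0.17 (exact permutation p = 0.315) and that of dme-mir-304-3p -0.55 (exact permutation p = 0.00025). The changes of the other arms without dme-bantam-3p were 0.49 for dme-mir-12-5p, 1.00 for dme-mir-283-3p and -1.26 for dme-mir-304-5p (exact permutation p = 0.00025 each). The calls of dme-mir-12-3p and dme-mir-283-5p were thus lost, dme-mir-304-3p turned lower, and the other arms kept direction and call at a different size.

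Ratios between arms of the cluster within a library do not depend on any scaling. The count of dme-mir-12-5p per count of dme-mir-304-5p was 0.11 ± 0.019 in untreated and 0.268 ± 0.046 in oxidised 1:1 libraries (SD, n = 3). It was 0.0901 ± 0.0071 against 0.357 ± 0.030 at 1:10 and 0.103 ± 0.015 against 0.41 ± 0.092 at 1:100 (SD, n = 3). The groups did not overlap at any of these ratios. The mean log2 change was 1.74, higher in 9 of 9 pairs (exact permutation p = 0.00025 and exact sign-flip p = 0.00391, each the smallest possible). How many other pairs of fly entries separated in this way was not counted, for this or the other ratios between hairpins. Among 35 fly hairpins, the 5p to 3p ratio was higher in 9 of 9 pairs for 17 and lower for 4, so this trait does not set the cluster apart. The p-values of ratios are unadjusted, with 5 ratios compared. Within sets 1, 2 and 3 the change was 1.89, 1.69 and 1.66.

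dme-mir-12-5p against dme-mir-283-5p moved much less. The mean log2 change was 0.32, higher in 8 of 9 pairs (exact permutation p = 0.0215, exact sign-flip p = 0.0117). It was 0.16, 0.51 and 0.28 within sets 1, 2 and 3, and the groups overlapped at every ratio. The call was lost without replicate 2 (0.22, exact permutation p = 0.231) and without replicate 3 (0.34, exact permutation p = 0.0648).

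The ratio of dme-mir-304-5p to dme-mir-283-5p was looked at after its values were seen and is given without a test. It was 1.74 ± 0.29 in untreated and 0.864 ± 0.181 in oxidised 1:1 libraries, 1.98 ± 0.18 against 0.688 ± 0.147 at 1:10 and 1.95 ± 0.12 against 0.591 ± 0.043 at 1:100 (SD, n = 3). The order of the 2 most abundant arms was thereby turned around, since dme-mir-283-5p exceeded dme-mir-304-5p in 8 of 9 oxidised libraries and in 0 of 9 untreated ones. The exception was set 3 at 1:1, with 2117 counts of dme-mir-283-5p and 2135 of dme-mir-304-5p. At 1:1000 the oxidised values were 0.273, 4.81 and 3.65 in sets 1, 2 and 3, and the groups overlapped there and in the more dilute mixtures.

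**Figure D4:**
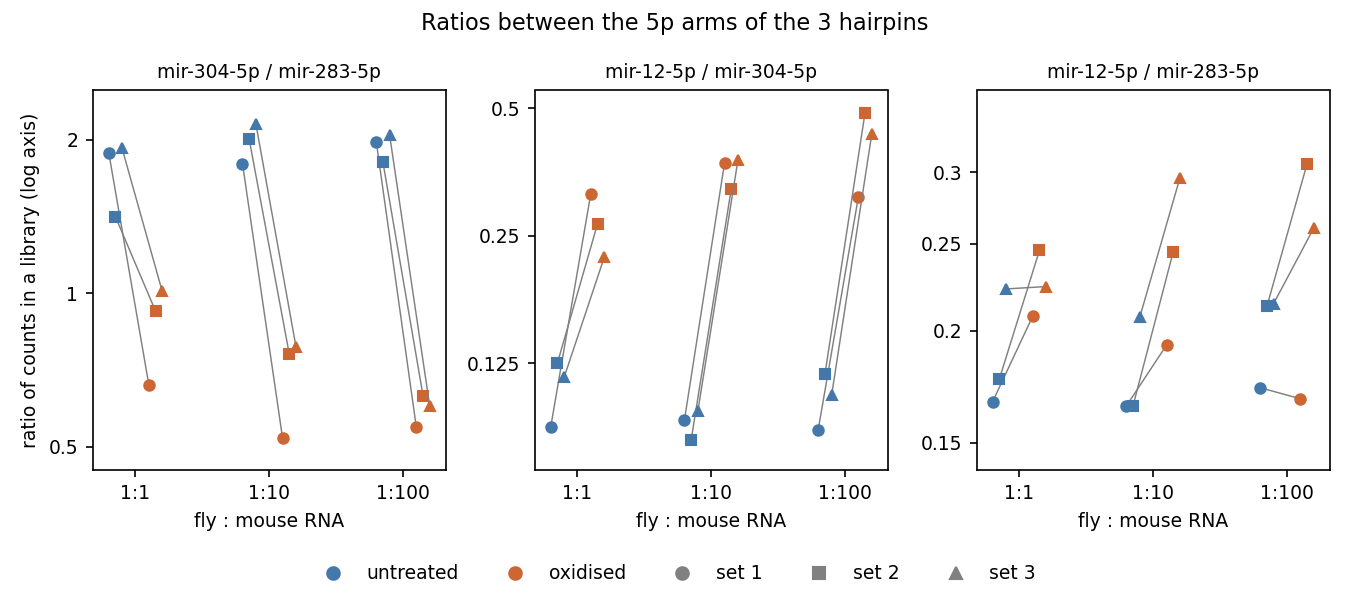
Ratio of counts of the 5p arms within each library (log axes that differ between panels) at 1:1, 1:10 and 1:100, with lines joining the untreated (blue) and oxidised (orange) library of a mixture. mir-304-5p per mir-283-5p was lower and mir-12-5p per mir-304-5p higher in 9 of 9 pairs, while mir-12-5p per mir-283-5p overlapped between treatments. How many other pairs of fly entries kept 1 direction was not counted.

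Within hairpins, the balance of the arms moved toward the 3p arm for mir-304 and mir-283. The 3p arm of mir-304 went from 2.40% ± 0.33 to 3.43% ± 0.46 of the hairpin at 1:1, from 1.95% ± 0.28 to 3.44% ± 0.74 at 1:10 and from 2.46% ± 0.31 to 3.90% ± 1.88 at 1:100 (SD, n = 3). The log2 ratio of 5p to 3p changed by -0.71 and was higher in 1 of 9 pairs (exact permutation p = 0.00075, exact sign-flip p = 0.00781), with -0.58, -0.75 and -0.81 within sets 1, 2 and 3. For mir-283 the change was -0.84, higher in 0 of 9 pairs (exact permutation p = 0.0103, exact sign-flip p = 0.00391), with -0.62, -0.57 and -1.33 within sets 1, 2 and 3. The call was lost without replicate 2 (-0.97) and without replicate 3 (-0.59, exact permutation p = 0.0741 each).

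mir-12 had a mean change of the other sign, which was not called. Its 5p to 3p ratio changed by 0.47 and was higher in 7 of 9 pairs (exact permutation p = 0.097, exact sign-flip p = 0.0742), with 0.77, 0.07 and 0.57 within sets 1, 2 and 3. The highest pair, 1.39 in set 3 at 1:100, rests on 13 counts of dme-mir-12-5p and 0 of dme-mir-12-3p with oxidation. At 1:1, where counts were highest, the mean change was 0.095. The comparison took the 35 fly hairpins with a mean of 50 or more counts of each arm in untreated 1:1 libraries. Among them the median absolute change of this ratio was 1.25, with 17 hairpins higher and 4 lower in 9 of 9 pairs. The absolute changes of mir-12, mir-304 and mir-283 ranked 8, 10 and 14 from the smallest, so the arms of each hairpin in the cluster moved apart by less than the median.

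**Figure D5:**
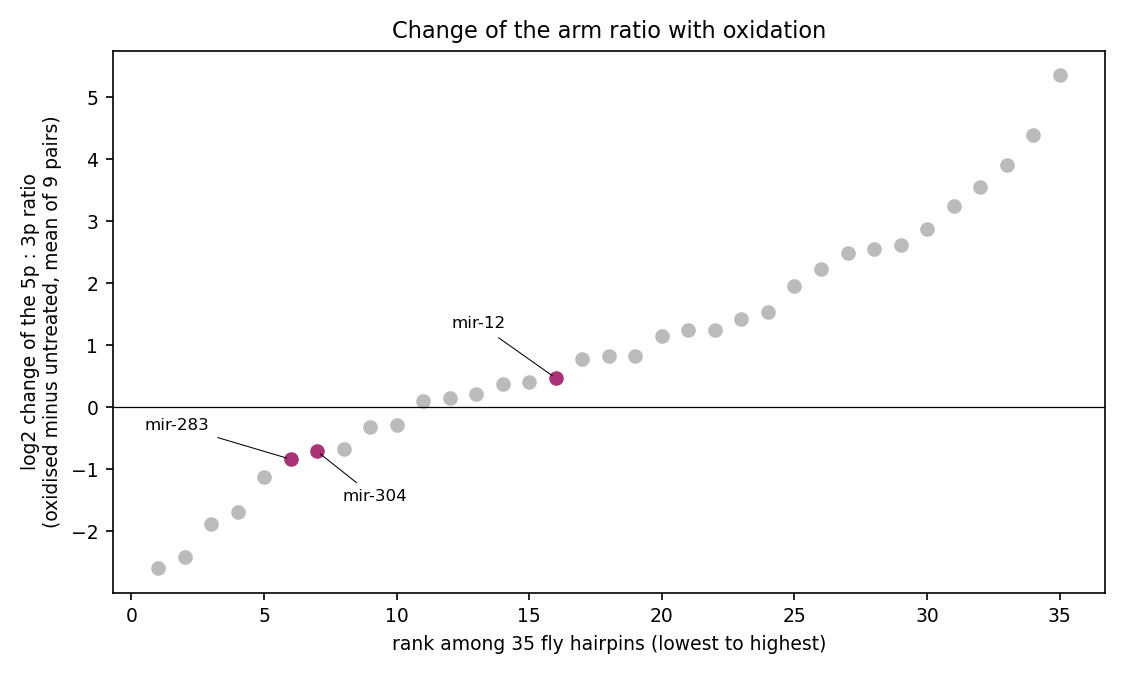
Change of the log2 ratio of the 5p to the 3p arm with oxidation, mean of 9 pairs, for 35 fly hairpins ordered from lowest to highest. Purple points are mir-283 (-0.84), mir-304 (-0.71) and mir-12 (0.47), and grey points are other hairpins.

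The fly entries whose change in share over the 9 pairs was nearest to that of dme-mir-12-5p were dme-mir-2a-2-5p, dme-mir-277-5p, dme-mir-277-3p, dme-mir-995-5p and dme-mir-281-2-3p, by root mean square differences of 0.27 to 0.36 on the log2 scale among 93 entries compared. dme-mir-283-5p ranked 8 and dme-mir-304-5p ranked 68 in likeness to dme-mir-12-5p. The 5 nearest entries had mean changes in share of 1.12, 1.14, 0.92, 0.96 and 1.11, beside 1.04 for dme-mir-12-5p. They were chosen by this change, so values near 1.04 follow from the choice. Among the level neighbours, the change relative to fly miRNAs was -1.17 for dme-mir-998-5p, 1.22 for dme-mir-306-3p, 0.82 for dme-mir-190-5p and 0.14 for dme-mir-968-5p. Entries of nearly the same mean level as dme-mir-12-5p thus lay both above and below its change of 0.38, though the level of dme-mir-306-3p varied widely between sets.

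Other clustered fly miRNAs, 42 arms tested of 92 arms listed, had 14 called higher, 18 lower and 10 not called relative to fly miRNAs, with a median log2 change of -0.37 beside -0.16 for all 105 and 0.04 for the arms of this cluster. Within a cluster, the most abundant arms of the hairpins differed by between 0.02 and 4.02 on the log2 scale over 10 clusters. The range of 1.73 between dme-mir-304-5p and dme-mir-12-5p was the fifth largest of them.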

How the data were processed

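Small RNA libraries from 36 fly and mouse RNA mixtures were analysed. Per the file headers, the authors deposited expected counts, which need not be whole, with 1 value per miRNA arm and no scaling to depth. All values of the 6 arms were whole numbers. The submitters' processing notes name the tools cutadapt 1.2.1 and HTSeq 0.6.1p1, and dm3 and mm10 as genome builds. The aligner and the treatment of reads with several matches were not given in the sources used here. Sharing of such reads could move counts between entries of similar sequence. Entries missing from set 1 (257) were set to 0, and counts were rounded.

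The cluster's arms, the lists and the tests were chosen with earlier results of these data known. Named entries were all arms, the 5 fly entries nearest to dme-mir-12-5p in change of share (mean of 50 or more untreated 1:1 counts) and its 2 neighbours in level on each side. Mouse entries sharing a seed could not be looked up and are not analysed here.

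Changes were tested with edgeR 4.0.16 (R 4.3.3; glmQLFit, glmQLFTest, 1 mean per group, filterByExpr with a minimum of 10 counts and a total of 15), with Benjamini-Hochberg adjustment over all entries tested and calls at 0.05. Library sizes were mouse totals times mouse TMM factors (36 libraries) or fly totals times fly TMM factors (18 libraries, fly entries alone; the average over ratios is reported). The SE is the absolute log2 change divided by the square root of F. Shares and ratios used log2 values with 0.5 added and exact two-sided permutation within ratios (smallest p 0.00025) or sign flips over 9 mixtures (smallest p 0.00391). DESeq2 1.42.0 was an alternative, with others given in the closing section. Both the edgeR and the permutation steps were tested on simulated data with known changes. The edgeR simulation took library sizes as known, and the permutation check used independent values. Neither thus tested the scaling or the dependence between libraries of a set. Floors of 3 counts and the exact counting interval (95%) describe counting error alone, because PCR copies of a molecule were counted as separate reads.

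Per the labels, each mixture was split before oxidation, so libraries with the same set and ratio are pairs. The sign flips use these pairs and the permutation within ratios does not. Both treat the mixing ratios within a set as independent. Checked over 94 fly entries, the deviations from group means correlated above 0.1 in 9 of 9 pairs at 1:1 to 1:100 (0.25 to 0.847, median 0.552). The design text speaks of 2 replicates, and 3 sets were present.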

Additional observations from a re-analysis of the deposited data

How the results depend on the processing

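Of 709 values recomputed for 103 results, 626 kept their direction and side of the threshold, or for a count or untested value stayed close (within 1.5 times or 1 SD). With dme-bantam-3p left out of the denominator the change in share was 0.0153 for dme-mir-12-3p and 0.17 for dme-mir-283-5p, both no longer called, and -0.55 for dme-mir-304-3p, reversed from 0.0026, while dme-mir-12-5p at 0.49, dme-mir-283-3p at 1.00 and dme-mir-304-5p at -1.26 kept their calls. Leaving mmu-mir-184-3p out of plain mouse counts, an alternative chosen after seeing the data, raised the ratio of mean levels of dme-mir-12-5p at 1:1 from 23.7 to 194 and its oxidised slope from 0.200 to 0.54. Under the replicate block (exact sign flips) dme-mir-12-3p kept 0.57 but lost its call, and the block changed no other call. Fitting each ratio alone left 5 arms called at 1:100, 3 at 1:1000, 2 at 1:10000 and 1 at 1:100000. The count filter was then applied to those libraries alone, so arms with few counts were not tested. DESeq2 called 4 at 1:100000. The shares of all fly entries called are not given for these alternative fits, nor for the counts of arms relative to fly miRNAs or without 1 replicate below. These counts of arms thus do not describe the cluster beside other fly miRNAs. Mouse totals without TMM, likewise chosen after seeing the data, brought the test of a difference between ratios past the threshold, with adjusted p by edgeR of 0.0129 for dme-mir-12-5p, 0.0386 for dme-mir-12-3p, 0.0135 for dme-mir-283-5p, 0.00924 for dme-mir-283-3p, 0.0327 for dme-mir-304-5p and 0.0135 for dme-mir-304-3p. Relative to fly miRNAs, fly totals without TMM gave 0.60 for dme-mir-12-3p (reversed), 0.73 for dme-mir-283-5p (now called) and -0.10 for dme-mir-304-3p, with 4 arms higher and 1 lower. With DESeq2 size factors dme-mir-12-3p was at 0.048 (reversed), dme-mir-12-5p at 0.51 and dme-mir-304-3p at -0.58, and in DESeq2 at 0.044 (reversed), 0.50 and -0.58, with dme-mir-12-5p and dme-mir-304-3p no longer called in either, which left 1 arm higher and 1 lower. No filter on low counts left dme-mir-12-5p at 0.38, not called, and 1 arm higher. Leaving out 1 replicate at a time gave changes in share of 0.25 to 0.81 for dme-mir-12-3p and -0.15 to 0.23 for dme-mir-304-3p, arm ratio changes of -0.97 to -0.59 for mir-283, and 0.22 to 0.40 for dme-mir-12-5p per dme-mir-283-5p. It gave 0 to 2 arms called at 1:100000, adjusted p by edgeR for a difference between ratios of 0.0141 to 1 for dme-mir-12-5p, 0.0221 to 1 for dme-mir-283-3p and 0.0146 to 1 for dme-mir-304-3p, and changes relative to fly miRNAs of -0.033 to 0.20 for dme-mir-12-3p, 0.25 to 0.68 for dme-mir-12-5p, -0.11 to 0.41 for dme-mir-283-5p and -0.68 to -0.46 for dme-mir-304-3p, with 1 to 2 arms higher and 1 to 2 lower. The cause of these changes was not tested. The median log2 change of fly entries relative to mouse miRNAs was 7.83, and 6.04 with total counts and TMM over all entries. At 1:1000 and beyond, single counts decide values of the 3p arms and of dme-mir-12-5p. The planned look at mouse entries that share a seed was not run, since no sequences were at hand.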
